A study of Mus musculus with 1824 samples.

Results

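The T-box genes encode transcription factors that share a DNA-binding domain, the T-box. The 10 members described here are T (also called Brachyury), Eomes, Tbx1, Tbx2, Tbx3, Tbx4, Tbx5, Tbx6, Tbx18 and Tbx20, which were found by matching the Ensembl IDs of the count table to gene symbols. They are 10 of 55487 genes in the table, and all 10 had at least 1 CPM (reads of a gene per 1000000 reads of the cells counted) at E7.5 or E8.5. The RNA of 1824 single mouse cells, each one sample, had been read by Smart-seq2 from 19 plates of 96 wells, 11 plates at E7.5 and 8 at E8.5. The embryos were chimaeras: embryonic stem cells lacking all 3 TET enzymes (Tet-TKO) and carrying a CAG-driven H2B-tdTomato label were injected into wild-type C57BL/6J blastocysts, which developed in CD1 recipients, and the labels give CD1 as the strain. Both stages therefore mix mutant and host cells, in one mutant cell line, and the labels do not say which cell is which. Cells had been stained for KDR and CD41 before sorting. The paper describes isolating blood and endothelial lineage populations at both stages, and its gates at E8.5 included cells negative for both markers. The gate of a cell is not in the labels either, so that the share of a cell type on a plate can reflect the sort. At E7.5, 4 plates each came from a named embryo (1, 2, 4 and 5), 1 plate was a numbered chimaera plate and 6 plates carried only a plate and lane number (called lane plates). No plate at E8.5 names an animal, so each stage is treated as 1 sample, the spread over plates mixes technical and sorting differences with differences between animals, and no test between stages was made. Stage may also coincide with the library protocol, as described under the processing.

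T-box factors act early in each germ layer and then in organs. T drives mesoderm formation in the primitive streak and the posterior body axis, Eomes is needed for trophoblast, definitive endoderm and the first mesoderm, and Tbx6 directs posterior cells to paraxial (somite-forming) mesoderm. Tbx5, Tbx20, Tbx18, Tbx2 and Tbx3 pattern the heart, Tbx1 acts in pharyngeal and second heart field progenitors, and Tbx4 in the allantois and hindlimb.

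Cells with at least 100000 reads, at most 10% mitochondrial and at most 20% ribosomal reads were kept, 89.5% of the wells at E7.5 and 89.7% at E8.5. They were clustered with all T-box genes left out, and 22 of 25 clusters were named from marker lists without T-box genes (such as primitive streak-like, 6 of 7 listed markers met). The streak-like cluster also met the marker rule for nascent mesoderm, with Mesp1 and Lefty2 among its leading genes. The remaining 3 clusters are called by their leading genes: cluster 4 (Fgf8, Sp8, Nanog), cluster 11 (Crabp2, Pax6) and cluster 18 (Sox7, Fgf3). The median depth of kept cells ranged over plates from 224956 reads (E7.5 lane plate 5, 57 kept cells) to 1699479 reads (E7.5 lane plate 3). The class called cardiomyocyte-like was mixed: Actc1 had a read in 22 of its 59 cells and Nppa in 2. Pharyngeal mesoderm markers were counted in its 21 cells with Tbx1, detected after thinning each cell to 100000 reads, and in the other 38. Reads were seen in 15 and 18 of these for Isl1, 15 and 11 for Fgf10, 11 and 9 for Tcf21 and 12 and 10 for Ebf1. For Hand2 the counts were 7 and 14, and for Nkx2-5 they were 7 and 12. Somitic mesoderm was the next name for this class by the marker rule. Erythroid-like cells, which should lack the members, had a read of T in 3 of 64 cells at E7.5 (4.69%) and of Eomes in 1.83% of them at E8.5 (2 cells), at median depths of 1047120 and 875226 reads, so detection at or below about this share is read as background.

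The promoters of the 3 members that define the streak and its posterior derivatives are shown because T, Eomes and Tbx6 are the genes whose joint presence in single cells is described next. The 250 bases before the start of each gene were taken from RefSeq (GRCm38.p6), where 7 of the 10 members had an entry. The T window lies at chr17:8434173-8434422, the Eomes window at chr9:118477939-118478188 and the Tbx6 window at chr7:126781233-126781482 (GRCm38), all on the plus strand and ending at the base before the RefSeq start of the gene. Capitals mark matches on either strand to a T-box core (AGGTGT), a TCF/LEF motif (ATCAAAG) or a TATA box (TATAAA). Only these exact letters were searched. Variants such as TATATAA in the Eomes window and TTCAAAG in the T window are not marked or counted.
T promoter: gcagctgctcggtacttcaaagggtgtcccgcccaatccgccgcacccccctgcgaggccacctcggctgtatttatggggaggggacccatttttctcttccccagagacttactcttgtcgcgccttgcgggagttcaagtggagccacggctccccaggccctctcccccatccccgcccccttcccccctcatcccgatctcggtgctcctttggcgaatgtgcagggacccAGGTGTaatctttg
Eomes promoter: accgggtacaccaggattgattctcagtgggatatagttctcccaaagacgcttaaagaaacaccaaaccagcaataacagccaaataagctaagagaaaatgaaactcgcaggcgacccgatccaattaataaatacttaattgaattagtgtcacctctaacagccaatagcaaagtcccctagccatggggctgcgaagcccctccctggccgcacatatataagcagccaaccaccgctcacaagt
Tbx6 promoter: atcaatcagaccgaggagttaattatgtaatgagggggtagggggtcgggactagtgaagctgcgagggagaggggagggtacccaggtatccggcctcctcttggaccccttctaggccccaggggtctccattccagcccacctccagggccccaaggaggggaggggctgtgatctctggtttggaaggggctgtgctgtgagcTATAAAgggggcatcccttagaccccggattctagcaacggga
The T window held 1 T-box core 14 bases before the start, a motif found in 11.8% of the 32851 mouse promoters of this length. The Tbx6 window held 1 TATA box 43 bases before the start, against 12.4% of all promoters. None of the 3 windows held the exact letters ATCAAAG of the TCF/LEF motif, which 3.21% of all promoters contain. The Eomes window held none of the 3 motifs in these exact letters, which does not show that it lacks a TATA box. Its GC content was 46.4%, against 62.8% for T, 59.6% for Tbx6 and a median of 52.4% over all promoters.

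The first question was how the members changed between the stages. T, Eomes, Tbx3 and Tbx6 were lower at E8.5 and Tbx1 was higher, each by at least 2-fold in pooled CPM with 1 CPM added, so 5 of 10 members passed this fold. Of the 15328 genes that reached 1 CPM at one stage or the other, 7.49% were at least 2-fold higher and 9.35% at least 2-fold lower. The median log2 ratio (E8.5 over E7.5) was -0.44 over the members and 0.05 over all these genes. For none of the 10 members did the E7.5 and E8.5 plates separate without overlap, as they did for 1.47% of all genes.

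Eomes showed the widest gap of the 10. Over the 11 E7.5 plates its lowest value was 0.193, its median 70.4 and its highest 234.7 CPM, and over the 8 E8.5 plates these were 0, 0.0234 and 2.04 CPM. The pooled level was 107.8 CPM at E7.5 and 0.576 at E8.5, a log2 ratio of -6.11. The low end at E7.5 was lane plate 1, of whose 93 kept cells 60 were in the erythroid-like cluster, so the groups overlapped there.

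The lowest, median and highest E7.5 plates held T at 0.0586, 104.8 and 379.8 CPM, and those of E8.5 at 0, 2.62 and 50.6. Lane plates 5 and 6 were highest, at 379.8 and 254.5 CPM, and at E8.5 plate 8 held 50.6 and plate 7 held 16.3. The pooled level was 92.97 CPM at E7.5 and 10.6 at E8.5, a log2 ratio of -3.01, which was -4.32 without E8.5 plate 8. A single cell gave 25.8% of all T reads at E8.5, against 2.04% at E7.5.

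Tbx3, a transcriptional repressor, was at 92.5 CPM at E7.5 (plates from 2.56 to 157.4) and 20.6 at E8.5 (0.210 to 61.3). Its log2 ratio was -2.11. Tbx6 was at 5.02 CPM at E7.5 and 1.97 at E8.5, a log2 ratio of -1.02 that stood just past the fold. Leaving out 1 plate at a time ended this call for 9 of 19 plates (E7.5 chimaera plate 3, lane plates 5 and 6 and E8.5 plates 1 to 6), most of all lane plate 6, which held 40.3 CPM and without which the ratio was -0.37. Without E8.5 plate 8 it was -1.63. Tbx1 was at 1.41 CPM at E7.5 and 7.36 at E8.5 (log2 ratio 1.79). On E8.5 plate 7 it stood at 33.8 CPM, and without that plate the ratio was 1.00, just under the fold, whereas without E7.5 lane plate 4 it was 2.47.

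The other 5 members stayed inside 2-fold. Tbx20, a cardiac and extraembryonic mesoderm factor, was at 49.5 CPM at E7.5 and 28.2 at E8.5, with plates from 9.57 to 104.6 and from 0.257 to 116.8, and without E8.5 plate 8 its log2 ratio went from -0.79 to -1.87. Tbx4 was at 6.24 and 10.3 CPM, and Tbx5 at 0.592 and 1.93. Both passed the fold when certain plates were left out, Tbx4 without E7.5 lane plate 3 (log2 ratio 1.12) and Tbx5 without E7.5 lane plate 4 (1.10) or E8.5 plate 1 (1.12). Tbx2, the closest relative of Tbx3, was at 1.24 and 1.11 CPM, and Tbx18 at 0.8289 and 1.05. A single cell gave 38.9% of Tbx5 and 42.5% of Tbx18 reads at E7.5, and 25.2% and 28.9% at E8.5. Per kilobase of exon, which allows levels to be compared between genes, T was highest at E7.5 (40.2 CPM per kb), followed by Eomes (25.95), Tbx3 (13.97) and Tbx20 (4.13). At E8.5 the order was T (4.60), Tbx3 (3.11), Tbx4 (3.03) and Tbx20 (2.35), whose plate ranges overlapped. The first place of T rested on E8.5 plate 8, without which T was at 1.59 CPM per kb, below Tbx4 (2.44), Tbx1 (2.33) and Tbx3 (2.04).

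**Figure D1:**
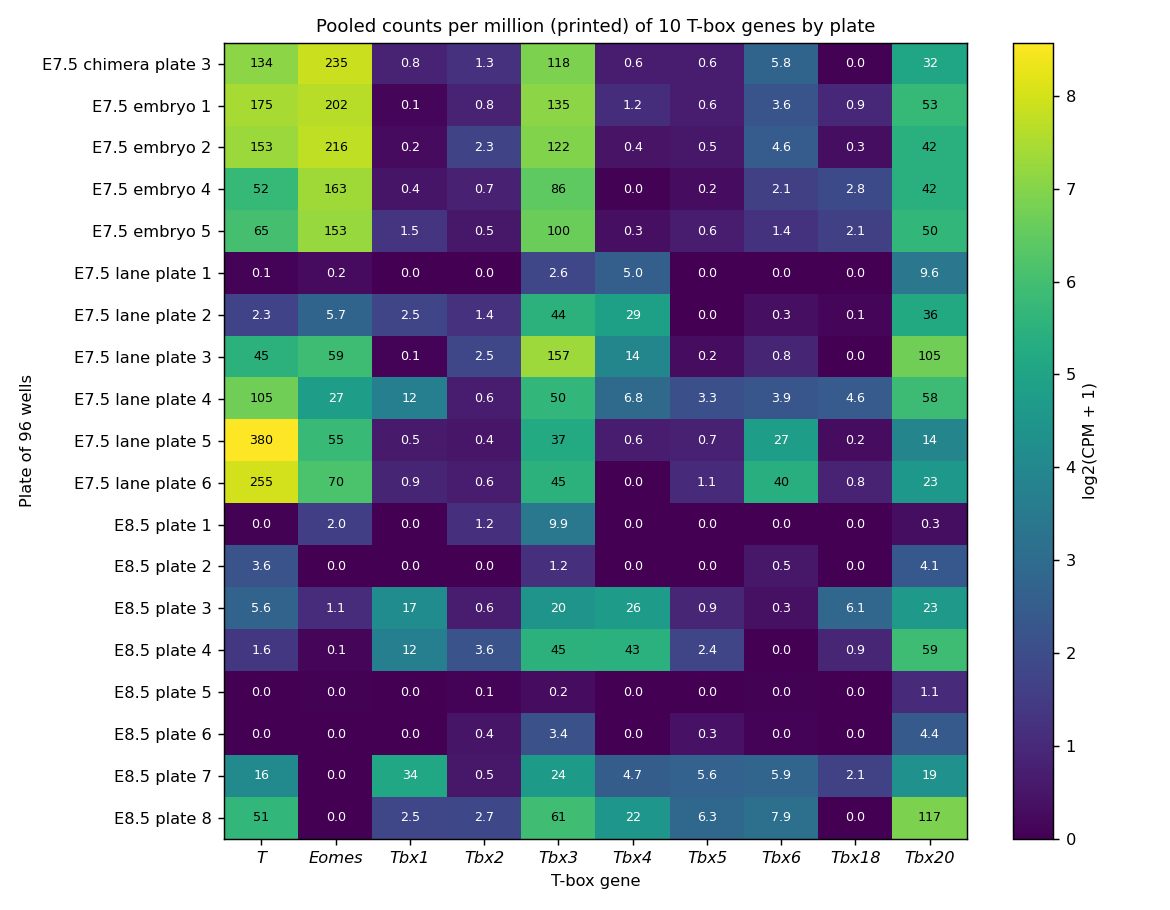
Pooled CPM of the 10 members (columns) in each of 19 plates (rows), coloured by log2(CPM + 1) with the CPM printed in each cell; levels compare down a column. T reaches 379.8 CPM on E7.5 lane plate 5. E8.5 plates 3, 4, 7 and 8 hold most of the E8.5 signal of every member but Eomes, which is highest on E8.5 plate 1 (2.04 CPM).

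Of the genes that work with the members, those of the streak were lower at E8.5 too. The lists were chosen with earlier results of these data known. Over all genes that reached 1 CPM, 9.35% passed 2-fold downwards and 7.49% upwards. For no gene on the lists did the E7.5 and E8.5 plates separate without overlap. All 5 streak partners passed the 2-fold limit downwards (Mixl1 from 230.8 to 3.34 CPM, Lhx1 from 108.7 to 2.54, Evx1 from 21.9 to 4.66 and Gsc from 16.4 to 0.632). Among 7 inducers of the streak, 5 were lower and none higher, including the Nodal co-receptor Tdgf1 (297.5 to 0.170 CPM) and the ligand Fgf8 (41.3 to 9.66), while Bmp4 stood at 65.5 and 59.1 CPM. Among 7 mesoderm targets 5 were lower, led by Mesp1 (86.96 to 3.86 CPM), with Snai1 at 48.9 and 21.1 CPM and Dll3 at 41.3 and 13.2, whereas Dll1, a Notch ligand of presomitic mesoderm, stayed inside 2-fold at 15.4 and 9.90 CPM. Msgn1, named after its values were seen, also stayed inside it at 11.1 and 8.57 CPM. Of 9 heart partners and targets 8 reached 1 CPM, with 1 higher (Nkx2-5, 0.787 to 3.19 CPM, named because it was the only one) and 1 lower (Fgf10, 70.7 to 17.5). Mef2c was at 52.9 and 87.05 CPM and Hand1 at 57.4 and 54.5.

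The remaining 7 T-box genes served as a comparison within the family. Mga, a T-box protein that also dimerises with MAX, was broadly present at 126.6 and 80.8 CPM, with plates from 59.2 to 209.7 CPM and a read in 94.7% of E7.5 and 90.6% of E8.5 cells. Tbx15 was at 1.96 and 0.395 CPM. Tbr1, Tbx10, Tbx19, Tbx21 and Tbx22 were all below 1 CPM in both stages. Mga had a read in 56 of 64 erythroid-like cells at E7.5, where T was seen in 3.

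The second question was in which cells each member was found. T was highest in cluster 4, at 562.3 CPM over 36 cells, all of which had a read of T (3 plates from 498.4 to 574.7 CPM). Presomitic mesoderm-like cells followed at 512.6 CPM (43 cells, 688.03 and 500.3 CPM on lane plates 5 and 6), so these classes overlapped over plates. Caudal epiblast-like cells were at 217.6 CPM at E7.5 (12 cells) and 139.4 at E8.5 (40 cells, 110.3 and 149.1 CPM on plates 7 and 8). Primitive streak-like cells (14.1% of kept E7.5 cells) were at 205.4 CPM, with 5 plates from 90.6 to 247.6.

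Eomes followed another order. Primitive streak-like cells held 347.7 CPM, with 5 plates from 291.3 to 376.5, and 46.1% of all Eomes reads. Definitive endoderm-like cells followed at 160.5 CPM (43 cells), extraembryonic ectoderm-like cells at 150.5 (98 cells, 4 plates from 74.5 to 165.2), cluster 4 at 131.5 and epiblast-like cells at 128.3 (8 plates from 30.5 to 271.9). The lowest streak-like plate lay above the highest plate of each of these classes. Presomitic mesoderm-like cells held 6.16 CPM. Reads of Eomes, Tbx3 and Tbx18 could include some from a gene on the opposite strand that overlaps each, since the strand setting of the counting is not stated. The partner genes held reads equal to 1.05%, 0.724% and 0.895% of these members' own.

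Tbx6 was highest in presomitic mesoderm-like cells. It stood at 106.1 CPM there (77.02 and 140.1 CPM on lane plates 5 and 6), where 31 of 43 cells had a read after every cell was thinned to 100000 reads. Caudal epiblast-like cells at E8.5 held 28.1 CPM (38.3 and 26.5 on plates 7 and 8), and primitive streak-like cells 10.9 CPM (5 plates from 8.33 to 13.01). The plate ranges of these classes did not overlap. At E7.5 the 12 caudal epiblast-like cells held 10.8 CPM, near the streak-like level. Per kilobase of exon, T and Eomes were close in primitive streak-like cells (88.7 and 83.7 CPM per kb) and in epiblast-like cells (32.9 and 30.9). Presomitic mesoderm-like cells held T at 221.4 and Tbx6 at 58.8 CPM per kb.

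The named class in which a member was highest depended on the clustering for some members. With values centred within plates T, Eomes, Tbx6 and Tbx18 were highest in a class of another name, and at the coarser Leiden resolution of 0.5 Tbx1, Tbx2, Tbx4, Tbx5 and Tbx18 were. With 4000 variable genes T and Tbx6 moved from the presomitic mesoderm-like class. In these cases the clustering gave fewer than 10 cells of the original name. At the finer resolution of 2 the original classes remained, but Eomes was highest in nascent mesoderm-like cells (362.75 CPM, against 324.3 in 57 streak-like cells) and Tbx3 in primitive streak-like cells (335.6 CPM, against 285.3 in extraembryonic mesoderm-like cells).

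**Figure D2:**
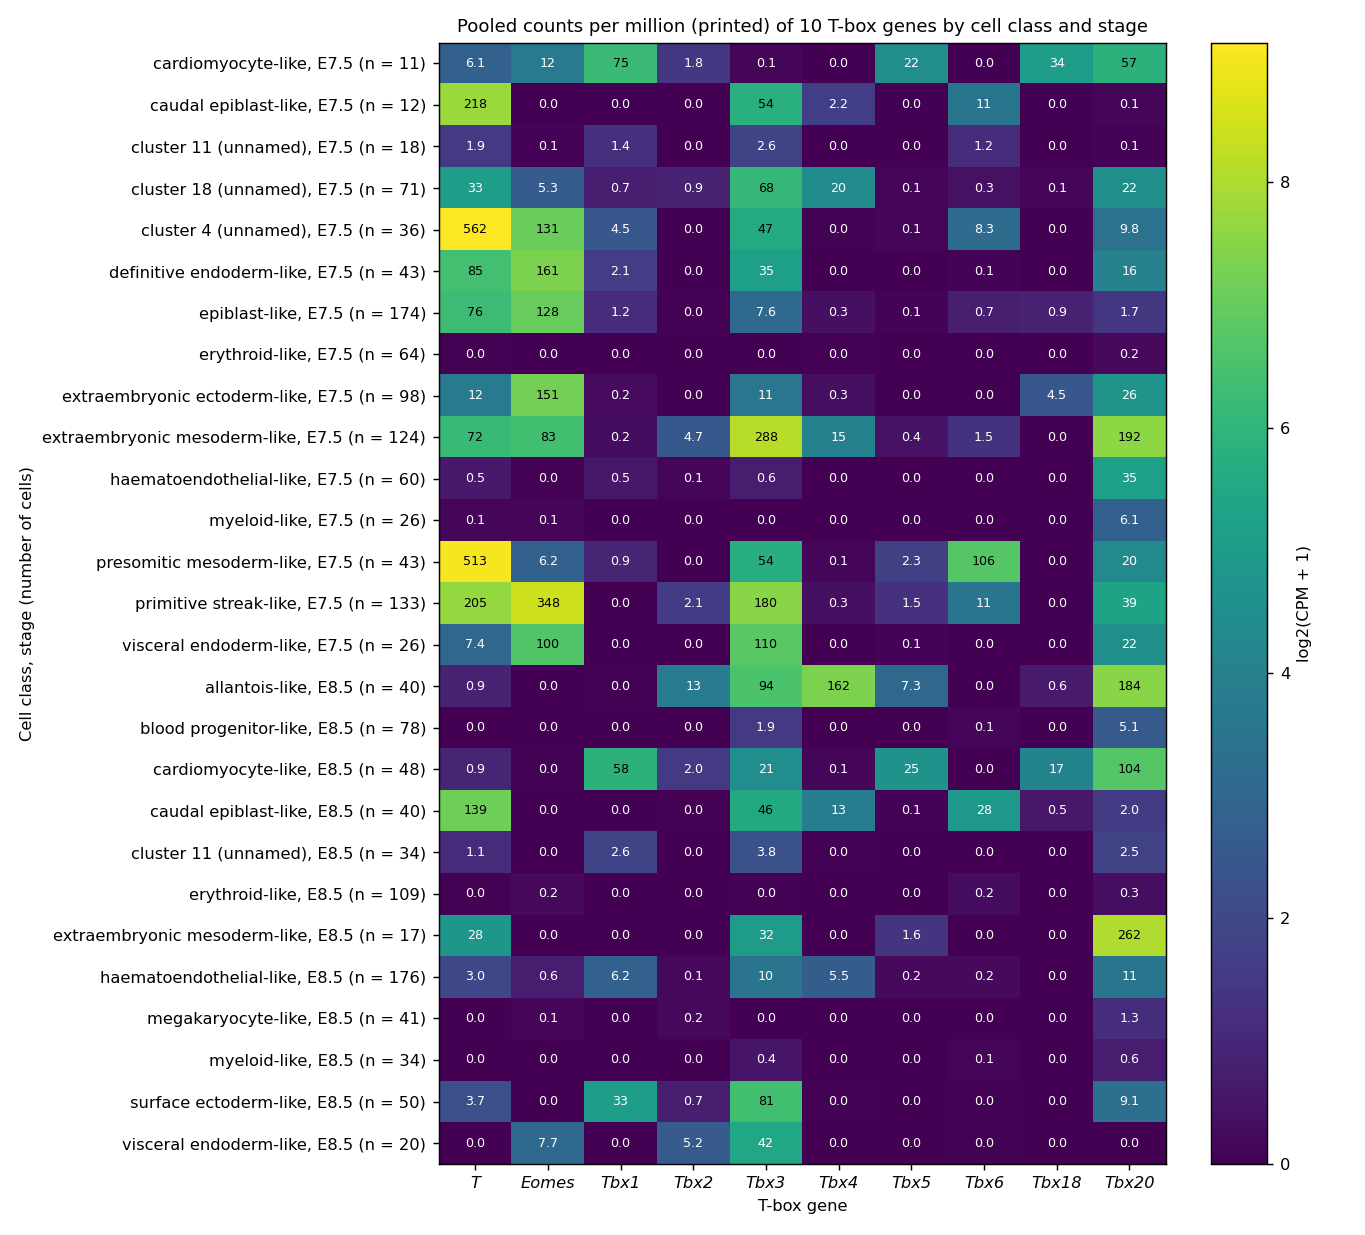
Pooled CPM of the 10 members (columns) in each cell class and stage with at least 10 cells (rows), coloured by log2(CPM + 1) with the CPM printed; levels compare down a column. Eomes peaks at 347.7 CPM in primitive streak-like cells, T at 562.3 in cluster 4, Tbx6 at 106.1 in presomitic mesoderm-like cells and Tbx4 at 161.5 in allantois-like cells.

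The 4 named embryos are the only animals the labels distinguish, and they allowed epiblast-like and primitive streak-like cells to be compared within an embryo. The streak-like class also met the rule for nascent mesoderm, as given above. Eomes was at 171.8, 142.9, 104.02 and 271.9 CPM in epiblast-like cells of embryos 1, 2, 4 and 5, and at 291.3, 376.5, 361.97 and 313.3 CPM in their streak-like cells. It was higher in the streak-like cells of 4 of 4 embryos, by 1.04 ± 0.70 (SD, n = 4) on the log2(CPM + 1) scale, and the embryos' values in the 2 classes did not overlap. T was at 86.4, 80.4, 26.6 and 136.3 CPM in epiblast-like cells and at 247.6, 211.9, 90.6 and 136.9 in streak-like cells. The T difference was 1.16 ± 0.78 (SD, n = 4), it was 0.01 in embryo 5, and the values of the 2 classes overlapped. Embryos 4 and 5 gave only 7 epiblast-like cells each, with 7 and 13 streak-like cells, against 31 to 37 cells of each class in embryos 1 and 2.

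Tbx3, Tbx20 and Tbx6 had larger mean differences than T between these classes. Tbx3 stood at 6.53 ± 8.35 CPM in epiblast-like and 204.3 ± 40.5 in streak-like cells (mean and SD, n = 4), a difference of 5.58 ± 1.71 on the log2 scale. Tbx20 stood at 1.04 ± 1.22 and 54.997 ± 14.7 CPM, and Tbx6 at 0.978 ± 1.30 and 10.3 ± 2.19 (SD, n = 4). For these genes the classes did not overlap over embryos, and each gene was higher in the streak-like cells of 4 of 4. With 4 embryos the smallest two-sided p that an exact sign-flip permutation test can give is 0.125, so no test was made.

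**Figure D3:**
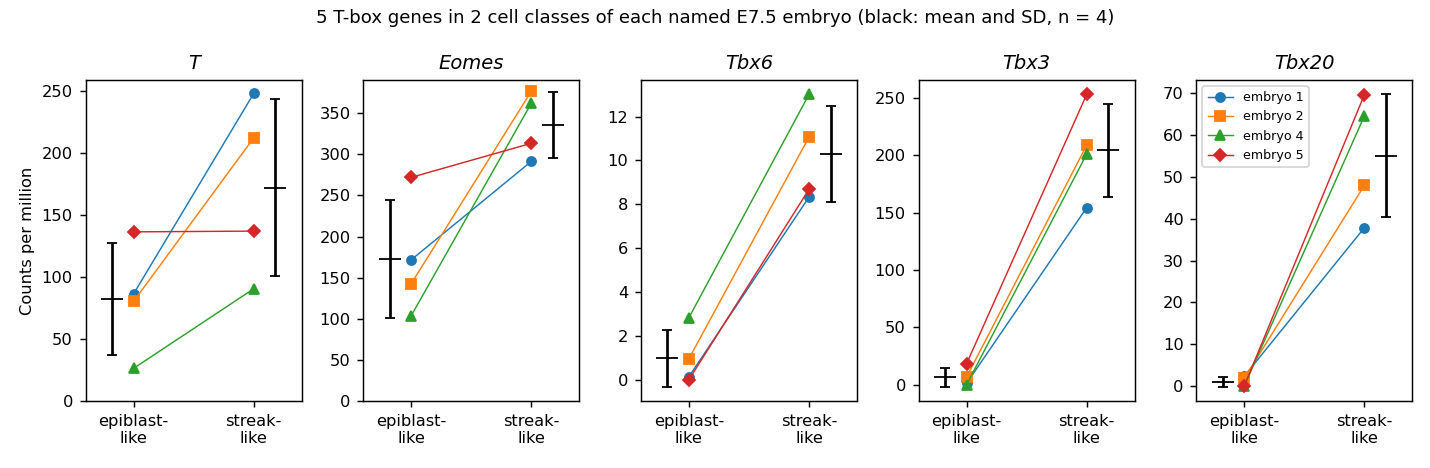
CPM of T, Eomes, Tbx6, Tbx3 and Tbx20 in epiblast-like and primitive streak-like cells of embryos 1, 2, 4 and 5 (one symbol and line per embryo), with the mean and SD of the 4 embryos in black. The streak-like value is the higher one in every embryo, for T in embryo 5 by only 0.01 on the log2 scale.

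Tbx3 and Tbx20 each had their highest level over classes in extraembryonic mesoderm-like cells; this tissue forms parts of the yolk sac, amnion and allantois. At E7.5 these cells (13.1% of kept cells) held Tbx3 at 287.7 CPM (8 plates from 168.7 to 470.6) and Tbx20 at 191.99 CPM (8 plates from 174.8 to 272.5). Per kilobase of exon Tbx3 stood at 43.4, T at 31.1, Eomes at 19.9 and Tbx20 at 16.003 CPM per kb in them. They gave 48.5% of all Tbx3 reads and 51.2% of all Tbx20 reads. A second cluster of the same name, led by Lum and Postn, held 16 of the 17 such cells at E8.5. There Tbx20 stood at 303.4 CPM and Tbx3 at 23.7, and in its 6 E7.5 cells they stood at 278.2 and 18.8 CPM. The E7.5 cells of the first cluster held Tbx20 at 188.3 and Tbx3 at 299.2 CPM. Tbx3 was further found in visceral endoderm-like cells (110.3 CPM at E7.5, 42.2 at E8.5) and in surface ectoderm-like cells at E8.5 (81.4 CPM, 53.2 and 122.9 on plates 7 and 8).

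Tbx4 was highest in allantois-like cells; the allantois connects the embryo to the placenta. In 40 such cells at E8.5 it stood at 161.5 CPM (108.4 and 221.3 on plates 4 and 8), 26 of the 40 cells had a read after thinning, and these cells gave 39.4% of all Tbx4 reads. The same cells held Tbx20 at 183.5 CPM (120.9 and 354.1 on these plates), Tbx3 at 93.6 (87.6 and 99.6) and Tbx2 at 12.6 (8.84 and 24.2). Each of these genes was higher on plate 8, with 6 such cells, than on plate 4, with 29. In cluster 18 at E7.5 Tbx4 stood at 20.2 CPM, with 140.002 CPM on lane plate 2, 0.252 on lane plate 3 and 0 in embryo 4. Caudal epiblast-like cells at E8.5 held 13.3 CPM (11.5 and 14.7 on plates 7 and 8).

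Some members are neighbours in the genome (GRCm38). Tbx2 (chr11:85832551-85841948) and Tbx4 (chr11:85886422-85916097) lie 44.5 kb apart, and Tbx3 (chr5:119670669-119684724) and Tbx5 (chr5:119832668-119885219) lie 147.9 kb apart. Tbx2 and Tbx4 were both highest in allantois-like cells at E8.5. Tbx3 exceeded 80 CPM in 5 class-and-stage groups in each of which Tbx5 stayed below 8 CPM. Of the Tbx2 cells, 7 of 41 at E7.5 and 9 of 24 at E8.5 also had Tbx4 (1.48 and 1.29 expected over the stage). Of the Tbx5 cells 13 of 16 and 13 of 22 had Tbx3 (6.81 and 5.11 expected). Members that are not neighbours shared cells too: 12 of 16 and 16 of 22 Tbx5 cells had Tbx20 (5.35 and 3.93 expected). A link to genome position was not tested.

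Tbx1, Tbx5 and Tbx18 were highest in cells of the class called cardiomyocyte-like, which was mixed as given above. In 48 such cells at E8.5, Tbx1 was at 58.1 CPM (4 plates from 6.79 to 179.8), Tbx5 at 24.7 (from 0 to 43.03), Tbx18 at 16.6 (from 0 to 50.6) and Tbx20 at 104.5 (from 5.19 to 252.2). The plates ranked differently for each gene: plate 8 was highest for Tbx20 and Tbx5 and lowest for Tbx1 and Tbx18, plate 4 was highest for Tbx1, and plate 3 for Tbx18. The 11 cardiomyocyte-like cells at E7.5, 8 of them from lane plate 4, held Tbx1 at 74.6, Tbx20 at 57.4, Tbx18 at 33.9 and Tbx5 at 21.6 CPM. Tbx5 had a read in 1 of these 11 cells. Outside this class Tbx1 stood at 32.9 CPM in surface ectoderm-like cells at E8.5 (55.9 and 8.30 on plates 7 and 8), and Tbx18 at 4.52 in extraembryonic ectoderm-like cells.

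Within these 48 cells some pairs of members shared few or no cells. After thinning, Tbx1 was detected in 17 cells and Tbx5 in 11, and no cell had both, where 3.90 were expected from the shares over the class and 2.68 from the shares on each plate. Tbx18 (7 cells) and Tbx20 (16 cells) also shared no cell, against 2.33 and 1.38 expected. Tbx5 and Tbx20 were found together in 8 cells, against 3.67 and 4.29 expected. Without thinning, Tbx1 and Tbx5 met in 2 cells (3.44 expected within plates), Tbx18 and Tbx20 in none and Tbx5 and Tbx20 in 8. These counts are small and carry no test.

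**Figure D4:**
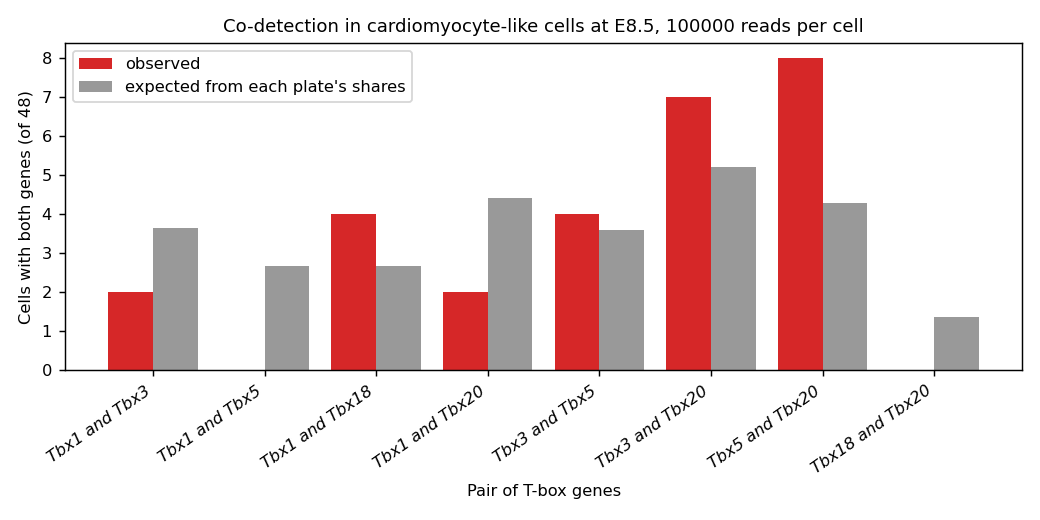
Number of the 48 cardiomyocyte-like cells at E8.5 in which both genes of a pair had a read after thinning to 100000 reads (red), beside the number expected from the share of each gene on each plate (grey); pairs with at least 2 cells expected over the class are shown. No cell held Tbx1 with Tbx5, or Tbx18 with Tbx20, whereas 8 held Tbx5 with Tbx20.

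Marker genes were counted without thinning in the cells of this class from both stages, whereas the members were detected after thinning. A cell that held several members is counted under each. Each of the 7 cardiomyocyte markers had a read in more of the 21 Tbx20 cells than of the 21 Tbx1 cells. The 2 sets came partly from different plates. On E8.5 plate 4 Tbx1 was in 7 of 8 cells and Tbx20 in 2, on plate 8 in 1 and 8 of 12, and on plate 7 in 7 and 5 of 20. The marker counts were not split by plate, so plate and member cannot be told apart. Actc1, cardiac actin, had one in 13 of 21 Tbx20 cells, 8 of 12 Tbx5 cells, 5 of 21 Tbx1 cells and 1 of 10 Tbx18 cells, and for Tnnt2, cardiac troponin T, the counts were 14 of 21, 8 of 12, 4 of 21 and 3 of 10 in the same order. The 6 pharyngeal mesoderm markers were divided. Ebf1 (12 of 21 Tbx1 and 2 of 21 Tbx20 cells), Fgf10 (15 of 21 and 8 of 21), Tcf21 (11 of 21 and 7 of 21) and Isl1 (15 of 21 and 14 of 21) were seen in more Tbx1 cells. Hand2 (7 of 21 and 13 of 21) and Nkx2-5 (7 of 21 and 14 of 21), which is on both lists, were seen in more Tbx20 cells.

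The third question was which members were found in the same cells. At a common depth of 100000 reads, 79.6% of E7.5 cells and 41.9% of E8.5 cells had at least 1 member, and 17.1% and 1.89% had 4 or more. T was detected in 44.7% of E7.5 cells (Clopper-Pearson 95% interval 41.5 to 47.9, counting error only) and Eomes in 55.03% (51.8 to 58.2), against 6.82% and 0.871% at E8.5. Unthinned shares were 53.2% and 60.3% at E7.5, then 10.01% and 1.89% at E8.5, and the last was close to the background of erythroid-like cells given above.

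At E7.5, 76.1% of T cells also had Eomes (95% interval 71.7 to 80.1), and 61.7% of Eomes cells had T. The number of cells with both was 1.38 times that expected from the shares over the stage and 1.10 times that expected within plates. The combination differed between classes. Of primitive streak-like cells 87.97% had both, while 15 cells had Eomes alone and 1 had T alone. Among epiblast-like cells 59 had both, 62 Eomes alone, 11 T alone and 42 neither, where 50.5 with both were expected within plates. In extraembryonic ectoderm-like cells 65 of 98 had Eomes alone and 26 both. In presomitic mesoderm-like cells 26 of 43 had T alone, 7 both and 3 Eomes alone. Caudal epiblast-like cells had T without Eomes in 6 of 12 cells at E7.5 and 24 of 40 at E8.5. Eomes had 0 reads in these cells at full depth, which at E8.5 allows a share of cells with a read of up to 7.5% by the limit of 3 counts (Clopper-Pearson upper bound 8.81%).

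**Figure D5:**
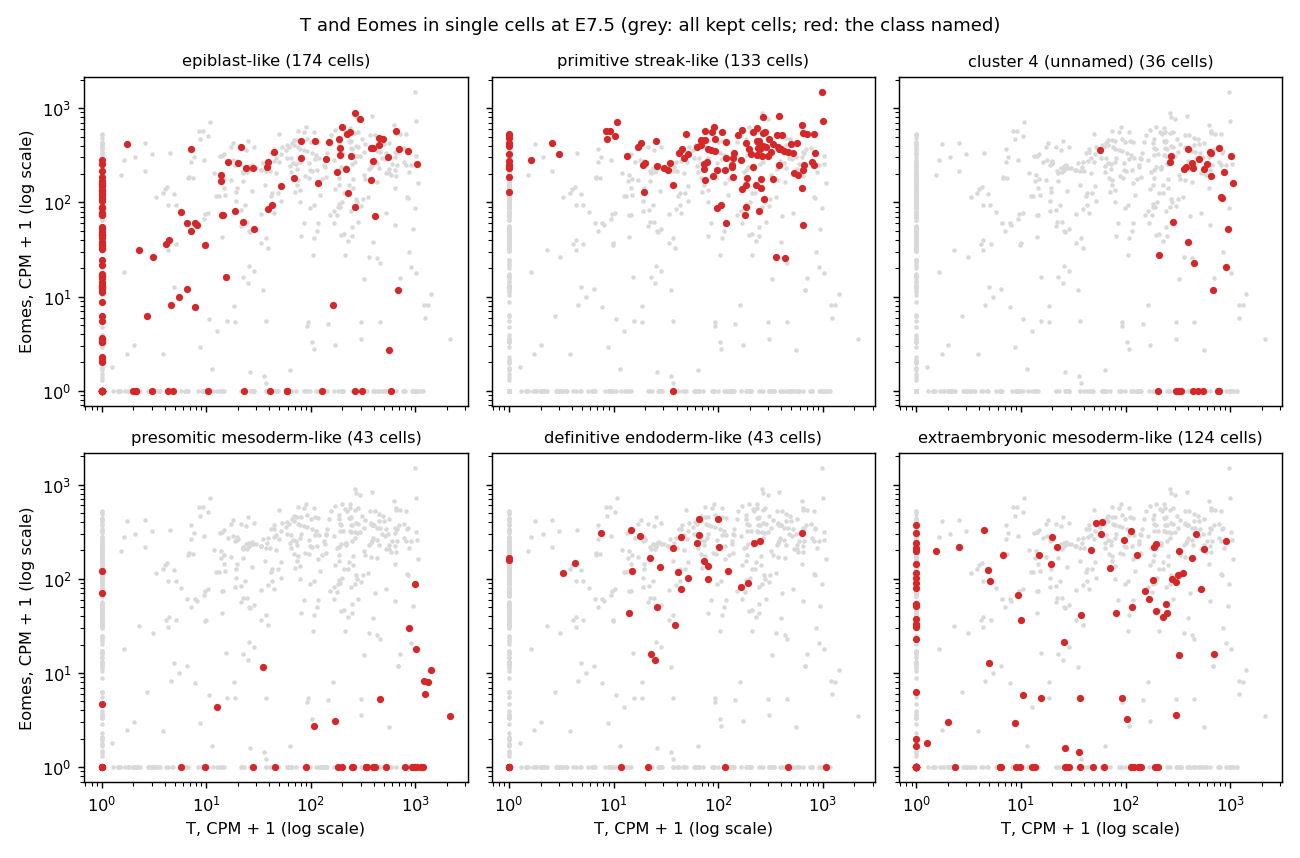
T (x axis) and Eomes (y axis) in single E7.5 cells, as CPM + 1 on log axes, with all kept cells in grey and the cells of 1 class in red in each panel. Primitive streak-like cells are high in both, all cluster 4 cells have T, presomitic mesoderm-like cells spread along the T axis, and epiblast-like cells run from neither to both.

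The level of T in single cells varied widely within a class. In cluster 4, 35 of 36 cells had at least 100 CPM of T, with a median of 497.1. Of presomitic mesoderm-like cells 29 of 43 reached this level (median 336.1 CPM, highest 2156). Of primitive streak-like cells 57.1% did (median 138.1), and of epiblast-like cells 21.3% (median 0.381, highest 1032.3). Eomes reached 100 CPM in 92.5% of primitive streak-like cells (median 335.6) and 35.6% of epiblast-like cells (median 44.1).

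Tbx6 was found mostly inside the T cells. At E7.5, 86.5% of Tbx6 cells had T, 96 cells against 64.7 expected within plates, and at E8.5 10 of 16 had. Of 49 Tbx6 cells that were streak-like, all 49 had Eomes and 45 had T. Of 31 that were presomitic mesoderm-like, 29 had T and 8 had Eomes. Within classes the joint counts lay nearer to expectation: T with Tbx6 was seen in 45 streak-like cells (43.2 expected within plates) and in 29 presomitic mesoderm-like cells (23.6 expected).

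Tbx2 was found mostly with Tbx3 and Tbx20. Of 41 Tbx2 cells at E7.5, 39 had Tbx3 (21.8 expected within plates) and 37 had Tbx20 (16.8 expected). None had Tbx6 (4.58 expected), although without thinning 5 of 60 had. At E8.5, 18 of 24 Tbx2 cells had Tbx3 and 15 had Tbx20. Of Tbx20 cells at E7.5, 73.7% had Tbx3, and of Tbx3 cells 57.96% had Tbx20, 1.48 times the joint number expected within plates. Inside extraembryonic mesoderm-like cells this ratio was 1.02 and inside streak-like cells 1.31. Over all pairs of members inside classes with at least 2 joint cells expected, 53.5% lay above the expectation within plates, with a median ratio of 1.02.

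The genes with the most similar profiles were found over 47 plate-and-class sums of at least 10 cells, which share plates and depth, by Pearson's r among 12861 genes. For T they were Mixl1 (0.91), Pou5f1 (0.88) and Evx1 (0.88). For Eomes they were Dppa5a (0.87), Klf9 (0.85) and Galnt12 (0.85), and for Tbx6 S1pr5 (0.86), Fgf4 (0.80) and Ripply2 (0.80). Tbx4 was closest to Hoxa11 (0.86), Hoxa9 (0.84) and Hoxa11os (0.79). Tbx3 was closest to Phlda2 (0.86), Peg3 (0.84) and Msx2 (0.83), and Tbx20 to Frmd6 (0.80), Capn6 (0.77) and Smad6 (0.77). The closest to Tbx5 were Csrp3 (0.81), Hspb7 (0.80) and Myocd (0.79), to Tbx1 Myl3 (0.74), Arg1 (0.73) and Myh7 (0.73), to Tbx18 Hrc (0.75), Nptxr (0.70) and Nppb (0.67) and to Tbx2 Alpk3 (0.65), Gm5868 (0.62) and Hand2 (0.61). These coefficients describe the clustered cells and were not tested.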

How the data were processed

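The RNA of single cells was captured on oligo-dT beads and amplified by Smart-seq2. By the paper, 768 cells also gave methylation libraries, not used here, and 1056 gave RNA only. These numbers equal those of the wells at E8.5 and at E7.5, so protocol may follow stage. Differences between the stages could then not be told apart from differences of protocol. The authors aligned reads to GRCm38 with HISAT2 (2.1.0) and deposited raw counts per gene from featureCounts; strand and multi-mapping settings are not given in the sources used here. Eomes, Tbx3 and Tbx18 share exon sequence with a gene on the opposite strand.

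Counts were summed per plate, stage or class and divided by total reads (CPM, pseudocount 1). Gene symbols, positions and exon lengths came from GENCODE M21. Kept cells were clustered with scanpy (1.11.5; 2000 variable genes, 30 components, Leiden resolution 1). Thinning drew 100000 reads per cell without replacement. Median reads of kept cells per plate ranged from 224956 to 1699479. Intervals cover counting error only. No test was made: each stage is 1 sample, and an exact paired test over 4 embryos cannot go below 0.125. No doublet caller was run; leaving out the deepest 2% of cells on each plate was one alternative. Named genes were the members, the other T-box genes, up to 4 genes per role list by level (others are marked as picked after seeing values), and the 3 genes most alike each member. Members and lists were chosen with earlier results of these data known. Alternatives included edgeR (TMM) and DESeq2 size factors. The stage rule was also run on simulated data, without genes of low level and with less spread over plates than any member had. The members' plate SDs on the log2 scale ran from 0.66 (Tbx2) to 2.43 (T), so the simulation cannot show how the rule behaves for them.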

Additional observations from a re-analysis of the deposited data

How the results depend on the processing

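The count of members past 2-fold between stages was 5, and it was 3 (none higher) with a pseudocount of 10 CPM and from 4 to 6 as each plate was left out. The number of members whose highest named class kept its name was 10, but 5 at a Leiden resolution of 0.5 and 6 after centring within plates, where the original class had fewer than 10 cells. It was 8 with 4000 variable genes, for the same reason, and 8 at a Leiden resolution of 2, where the original classes of Eomes and Tbx3 remained. The share of E7.5 T cells with Eomes was 71.2% when at least 2 reads were required, and ranged from 72.7% to 80% as each plate was left out. Per member, the log2 ratio of Tbx2, -0.09, changed sign when plates or cells were weighted equally (0.07 in both) and without E7.5 embryo 2 or lane plate 3 or E8.5 plate 2 (0.003 to 0.14), and that of Tbx18, 0.16, was -0.42 without E8.5 plate 3. No called ratio changed direction. Expected joint counts within plates, and E8.5 levels per kilobase without each plate, were added after seeing the data. Streak-like and epiblast-like cells were paired by embryo in the report, and no other comparison has pairs.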
